A study of Mus musculus with 30 samples.

Results

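B2 elements are short interspersed elements (SINEs), a family of repeats that rodents carry in very many copies. The intervals described here are the short genomic stretches that the authors' repeat count table labels B2 and nothing else. They number 56125 of the table's 205758 intervals (27.3%), and another 2390 intervals that carry B2 together with a further label were left out. Of these B2 intervals, 50714 (90.4%) run from a start to an end 25 bases further on, and the lengths range from 4 to 101 bases. In the GENCODE M21 annotation of GRCm38 (mm10), 30783 of them (54.8%) lie in introns, 23174 (41.3%) between genes and 2168 (3.86%) in exons. The exonic ones comprise 745 in untranslated regions (UTRs), 17 in coding sequence and 1406 in exons of non-coding transcripts.

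B2 elements descend from a tRNA gene and carry an internal promoter, with an A box and a B box, from which RNA polymerase III can transcribe them. They spread by borrowing the copying machinery of L1 elements, and their 3′ ends hold a polyadenylation signal. Most B2 sequence in cellular RNA is nevertheless part of longer RNA polymerase II transcripts, in introns and UTRs, and counts on a B2 interval do not tell these sources apart. In mouse cells, B2 RNA made by RNA polymerase III rises on heat shock and binds RNA polymerase II.

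The libraries, 30 in 10 groups, held RNA of retinal ganglion cells, which send their axons through the optic nerve to the brain. All mice were LSL-Cas9-GFP; Vglut2-Cre animals, so that Cas9 is made where the Vglut2 promoter drives Cre. Adeno-associated virus (AAV2) brought in either non-targeting sgRNAs (NT) or sgRNAs against Ssrp1 (SSRP1KO), whose product is a subunit of the FACT histone chaperone, and the optic nerve was crushed 2 weeks later. For each sgRNA there were 3 libraries without crush (no crush) and 3 each at 1, 2, 3 and 4 days post crush (dpc), from live cells sorted on CD90.2, GFP or mCherry or a combination. The age of the animals and whether a library came from 1 animal are not given in the labels, so p-values measure the spread between libraries, which may be technical.

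The gene table held 9715972 to 34420978 counts per library and the B2 intervals 49202 to 357878. Values are given as a percent of gene counts, or as counts in 1000000 gene counts (CPM). Ssrp1 mRNA was 75.4 ± 18.3 CPM in NT and 41.3 ± 9.61 CPM in SSRP1KO (SD, n = 15 each). The library labelled SSRP1KO no crush replicate 3 had 66.9 CPM of Ssrp1, inside the NT no crush range of 61.0 to 67.9, and the library labelled NT 2dpc replicate 3 had 36.0, below the 39.0 to 45.4 of SSRP1KO 2dpc. Both of these libraries and SSRP1KO 2dpc replicate 5 stood apart from their groups in the gene table, with a median correlation to their group (Spearman) under 0.96. Summed markers of ganglion cells were 4286 to 10458 CPM, those of rods 123 to 3450 CPM, of microglia 13.6 to 236 CPM and of endothelium 0.741 to 24.8 CPM.

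The sequences of exonic intervals show the letters that B2 intervals share. Sequence was read from GENCODE M21 transcripts for 2063 of the 2168 exonic intervals, on the strand of the transcript, as the files' coordinates taken from 1. The files do not say whether starts count from 0 or 1, so the first base on the plus strand may lie outside the interval. The 8-mer found in most of them was AGTGTACT, or AGTACACT on the opposite strand, in 709 intervals (34.4%), with 350 on the transcript strand and 359 on the other. The same letters were in 1 of 2530 exonic Alu intervals, in 0 of 525 B4 and 0 of 720 L1 intervals, and in 22 of 32886 exonic intervals without a repeat label. The polyadenylation signal AATAAA or its complement TTTATT was in 34.3% of the B2, 3.48% of the Alu, 16.2% of the B4, 27.9% of the L1 and 34.5% of the unlabelled intervals.

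The intervals below are the 8 exonic ones outside UTRs and coding sequence with the largest increase in SSRP1KO among those that passed the test described further on, chosen after their values were seen. Capitals mark the most frequent 8-mer or its complement.
Yae1d1 retained intron, chr13:17991365-17991390, minus strand: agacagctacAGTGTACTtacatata
Cox4i1 retained intron, chr8:120669751-120669776, plus strand: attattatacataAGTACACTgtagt
Rpn2 processed transcript, chr2:157281957-157281982, plus strand: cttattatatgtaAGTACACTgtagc
Gm43360, chr5:122493522-122493547, minus strand: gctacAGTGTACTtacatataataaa
Hdgfl2 retained intron, chr17:56099631-56099656, plus strand: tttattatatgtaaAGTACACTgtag
BC051077 lincRNA, chr5:117312668-117312693, minus strand: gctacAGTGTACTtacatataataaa
Gm49016 antisense RNA, chr14:78945191-78945216, minus strand: atgtactcacatacatcaaataaata
Dlg1 processed transcript, chr16:31851988-31852013, plus strand: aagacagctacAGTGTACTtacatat
The Gm43360 and BC051077 sequences are the same 26 bases at different places. Among the 2063 intervals read, 1821 sequences were distinct and the most frequent stood at 19 places. How reads that match several places were treated is not given in the sources used here, so counts of such copies cannot be told apart.

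The surroundings of the exonic intervals were searched for letters of the B box, GTTCNANNC, on either strand. Of 504 windows that reach from 160 bases before to 40 bases after an exonic B2 interval with the 8-mer, laid along the 8-mer's strand, 446 (88.5%) held these letters. They were in 44.8% of 1731 Alu windows, 21.2% of 302 B4 windows, 7.30% of 411 L1 windows and 6.84% of 20581 unlabelled windows of the same size. Only the B2 windows were chosen for the 8-mer and laid along its strand, so these shares do not compare the families on like terms.

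Summed B2 counts were higher in SSRP1KO than in NT libraries, by amounts that differed between times. In NT no crush libraries B2 intervals held 0.439%, 0.464% and 0.399% of gene counts, and in SSRP1KO no crush 1.23%, 1.25% and, in the library labelled SSRP1KO no crush replicate 3, 0.820%. These groups did not overlap, and the SSRP1KO mean of 1.10% ± 0.243 was 2.53 times the NT mean of 0.434% ± 0.0331 (SD, n = 3 each). At 1dpc the NT libraries held 0.362%, 0.404% and 0.402% and the SSRP1KO libraries 0.355%, 0.398% and 0.467%, which overlapped, with a ratio of 1.04.

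At 2dpc the NT libraries held 0.513%, 0.555% and, in the library labelled NT 2dpc replicate 3, 0.623%. The SSRP1KO libraries of that day held 0.431%, 0.632% and 2.36%, and the last value, from SSRP1KO 2dpc replicate 5, set most of the ratio of 2.02. At 3dpc NT held 0.461%, 0.415% and 0.489% and SSRP1KO 0.568%, 0.870% and 0.603%. The groups were apart at that day, with a ratio of 1.49, and the SSRP1KO library with 0.870% also had the highest sum of 5 rod marker genes of all libraries, 3450 CPM against 552 and 654 in the others of its group, whose part in the result was not tested. At 4dpc NT held 0.452%, 0.493% and 0.592% and SSRP1KO 1.01%, 0.963% and 0.738%, again apart, with a ratio of 1.76. Each comparison of 3 libraries with 3 had an exact permutation p of 0.1 at no crush, 3dpc and 4dpc, the smallest this design allows, and of 0.9 at 1dpc and 0.7 at 2dpc (two-sided).

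The summed level of 8 ganglion cell markers moved with the sgRNA as well. It was 9232 to 10458 CPM in NT and 6442 to 7400 in SSRP1KO at no crush, 6964 to 7430 and 4889 to 6015 at 3dpc, and 5947 to 9470 and 4286 to 4665 at 4dpc, with no overlap at these times. At 1dpc, where B2 totals overlapped, the marker sums were also apart, at 6606 to 8490 CPM in NT and 5991 to 6522 in SSRP1KO. At 2dpc they overlapped, at 6147 to 6804 and 4792 to 6757 CPM, and the lowest was SSRP1KO 2dpc replicate 5, the library with 2.36% B2. At no crush, amacrine markers summed to 255 to 487 CPM in SSRP1KO and 57.1 to 241 in NT, and microglia markers to 56.9 to 236 and 23.4 to 40.9. Both were apart there, while rods, bipolar cells, glia and endothelium overlapped. At 1dpc amacrine, bipolar and glia markers were higher and rods lower in SSRP1KO, without overlap. Rods were higher at 2dpc, and bipolar cells and endothelium at 3dpc, also without overlap. At 4dpc all these lists overlapped. The part of these marker levels in the B2 result was not tested.

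**Figure D1:**
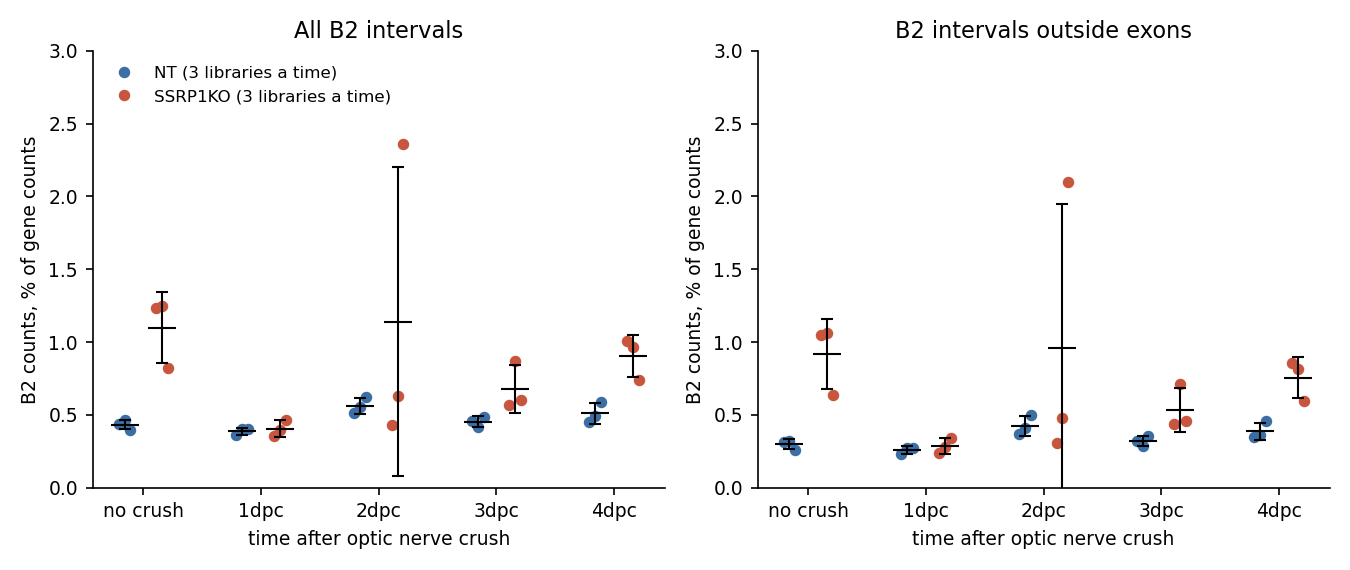
B2 counts as a percent of gene counts (y) at each time (x), for all B2 intervals (left) and for those outside exons (right); points are libraries, 3 per group, and black bars the group mean and SD. SSRP1KO libraries (red) lie above all NT libraries (blue) at no crush, 3dpc and 4dpc, overlap them at 1dpc, and at 2dpc include 1 library at 2.36%.

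Over the 5 times, SSRP1KO minus NT was 0.375 percentage points (0.846% ± 0.506 against 0.471% ± 0.0748, SD, n = 15 each). A permutation test with sgRNA labels shuffled within times gave p = 0.00024, or 0.00144 adjusted over the 6 tests of B2 totals. Without the 3 libraries that stood apart the difference was 0.288 points (permutation p = 0.00045), and with each library left out in turn it was 0.254, without SSRP1KO 2dpc replicate 5, to 0.446 points. As a share of all counts in the repeat table, B2 intervals held 1.78% in SSRP1KO and 1.03% in NT, a difference of 0.751 points (permutation p = 0.00628, adjusted 0.0188). In a bulk sample, more cells with B2 RNA and more B2 RNA per cell cannot be told apart.

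The sex of the animals is not in the labels, and transcripts of the female-expressed Xist and of Y-linked genes differed between the groups. Xist was 1293 to 2608 CPM in the SSRP1KO no crush libraries and 0.364 to 190 CPM in NT no crush, so at no crush the sgRNA and this difference cannot be told apart. Among libraries with Xist over 800 CPM, B2 counts were 0.568% to 1.25% in 9 SSRP1KO libraries and 0.362% to 0.623% in 9 NT libraries, with medians of 0.870% and 0.461% (exact permutation p = 0.000206, two-sided). Among libraries with Xist under 10 CPM, they were 0.355% to 2.36% in 6 SSRP1KO libraries and 0.399% to 0.555% in 5 NT libraries, with medians of 0.449% and 0.464% (exact permutation p = 0.749). The high-Xist SSRP1KO libraries were from no crush, 3dpc and 4dpc, and the high-Xist NT libraries from 1dpc to 4dpc, with none of no crush. The low-Xist SSRP1KO libraries were all from 1dpc and 2dpc. Both of these permutations ignored time, so in neither set can time and sgRNA be told apart.

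With the 4 days after crush pooled, the B2 total did not pass the test against no crush under either sgRNA, but single days stood apart. In NT, crushed minus uncrushed libraries was 0.0460 percentage points (exact permutation p = 0.356, adjusted 0.404). In SSRP1KO it was -0.318 points (exact permutation p = 0.336, adjusted 0.404). Without the 3 libraries that stood apart the SSRP1KO difference was -0.601 points with an exact permutation p of 0.0128, and without SSRP1KO 2dpc replicate 5 alone it was -0.461 points. By day, the NT libraries at 2dpc all lay above the 0.399% to 0.464% of NT no crush, by 0.129 points on average, and by 0.0995 points without the library labelled NT 2dpc replicate 3. In SSRP1KO the 1dpc libraries all lay below the 0.820% to 1.25% of no crush, with a mean difference of -0.694 points. Both had an exact permutation p of 0.1, the smallest 3 against 3 allows. The other days overlapped no crush, though without the 3 libraries that stood apart all SSRP1KO libraries after crush lay below the remaining 2 of no crush. On the log2 scale the crush effect was -0.68 in SSRP1KO and 0.13 in NT, a difference of -0.81 (permutation p = 0.214).

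The excess was mostly in intervals outside exons. Outside exons, B2 counts were 0.918% of gene counts in SSRP1KO and 0.300% in NT at no crush, a ratio of 3.06, while exonic B2 intervals were at 0.183% and 0.135%, also without overlap between the libraries. The ratio outside exons was 1.11 at 1dpc, 2.26 at 2dpc, 1.66 at 3dpc and 1.95 at 4dpc. Intronic B2 intervals were at 0.495% ± 0.358 in SSRP1KO and 0.233% ± 0.0538 in NT, and intergenic ones at 0.196% ± 0.115 and 0.106% ± 0.0227 (SD, n = 15 each). Other repeats outside exons moved less at no crush, with ratios of 1.99 for Alu (the family label that holds mouse B1), 1.75 for B4, 1.60 for ERVK and 0.779 for L1. For Alu, B4 and ERVK the libraries did not overlap there either. At 4dpc those ratios were 0.914, 1.34, 1.18 and 1.23. B2 counts were 126% ± 27.9 of the summed Alu and B4 counts in SSRP1KO and 80.9% ± 11.7 in NT (SD, n = 15 each).

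**Figure D2:**
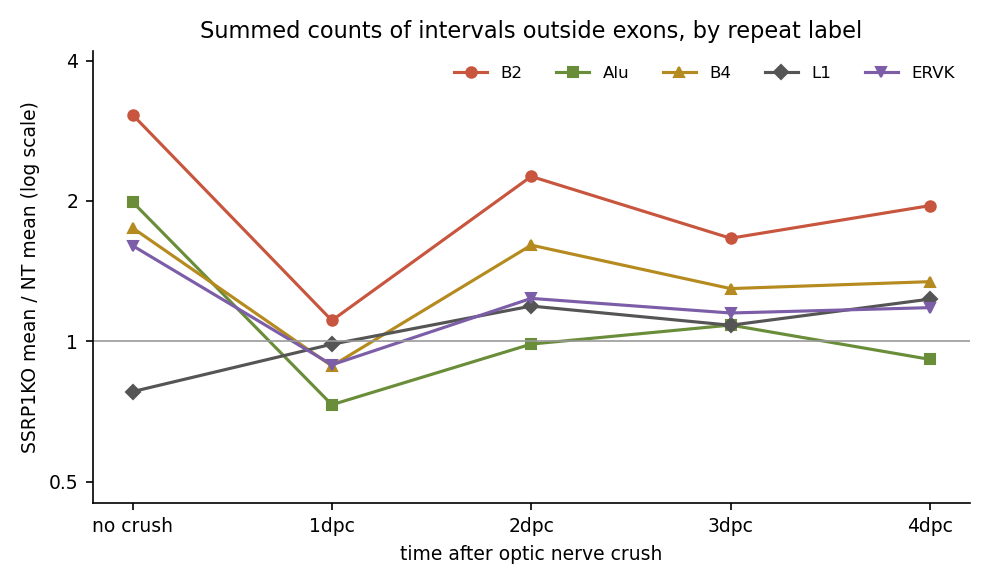
Ratio of the SSRP1KO to the NT group mean (y, log scale) of summed counts outside exons, as a share of gene counts, at each time (x) for 5 repeat labels. B2 is highest of the 5 at every time, from 1.11 at 1dpc to 3.06 at no crush.

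The excess was spread over many intervals. At no crush, SSRP1KO exceeded NT by 6661 CPM summed over B2 intervals, of which the 10 intervals with the largest gains held 2.77%, the top 100 held 9.75% and the top 1000 held 31.0%. A single library showed a count at 23.5% to 38.3% of the B2 intervals in NT and at 30.3% to 58.3% in SSRP1KO. Before any filter, the mean over the 5 times was higher in SSRP1KO at 39183 and lower at 11350 of the 50533 B2 intervals with any count (77.5% higher), against 54.2% of Alu intervals. At single times the share higher was 79.0% at no crush, 54.8% at 1dpc, 65.9% at 2dpc, 69.7% at 3dpc and 75.7% at 4dpc. The other 5592 B2 intervals had no count in any library.

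Each interval with enough counts was then tested with edgeR's quasi-likelihood test on the whole table, with Benjamini-Hochberg adjusted p under 0.05 as the threshold. The test covered 54536 intervals, among them 10473 B2 intervals (18.7% of all B2 intervals). For the mean of the 5 SSRP1KO against NT differences, 2572 B2 intervals were higher and 21 lower, 24.8% of those tested. Of all intervals tested 8.92% passed in that comparison, 7.08% higher and 1.84% lower, and of those that are not B2 5.16% passed. The median log2 change was 1.03 over the B2 and 0.12 over all intervals, and scaling libraries by the genes' TMM factors moved these to 0.87 and -0.02. Intervals seen mainly in SSRP1KO enter through that group, so the filter was repeated on NT libraries alone. Of the 3440 B2 intervals then tested, 327 were higher and 5 lower (9.65%, against 3.70% of all), with a median of 0.38 against 0.01.

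By place, 1808 of 7229 intronic B2 intervals were higher and 4 lower, with a median log2 change of 1.10. Between genes, 655 of 2285 were higher and 9 lower, with a median of 1.13. In exons 109 of 959 were higher and 8 lower, with a median of 0.36. With the filter on NT libraries alone, 219 of 2101 intronic intervals were higher and 2 lower (median 0.49), 83 of 729 between genes higher and 0 lower (median 0.35), and 25 of 610 exonic ones higher and 3 lower (median 0.16). Exonic intervals with AGTGTACT on either strand had 60 of 304 higher and 0 lower, at a median of 0.60, and those without it 46 of 623 higher and 7 lower, at a median of 0.27. Under the NT filter these were 12 of 171 higher and 0 lower at a median of 0.28, and 12 of 426 higher and 2 lower at a median of 0.14. The 8-mer lay on the transcript strand in 28 and on the opposite strand in 32 of the 60. Among other SINEs, 114 of 5675 Alu intervals were higher and 55 lower (median 0.11), and 36 of 865 B4 intervals higher and 4 lower (median 0.36).

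**Figure D3:**
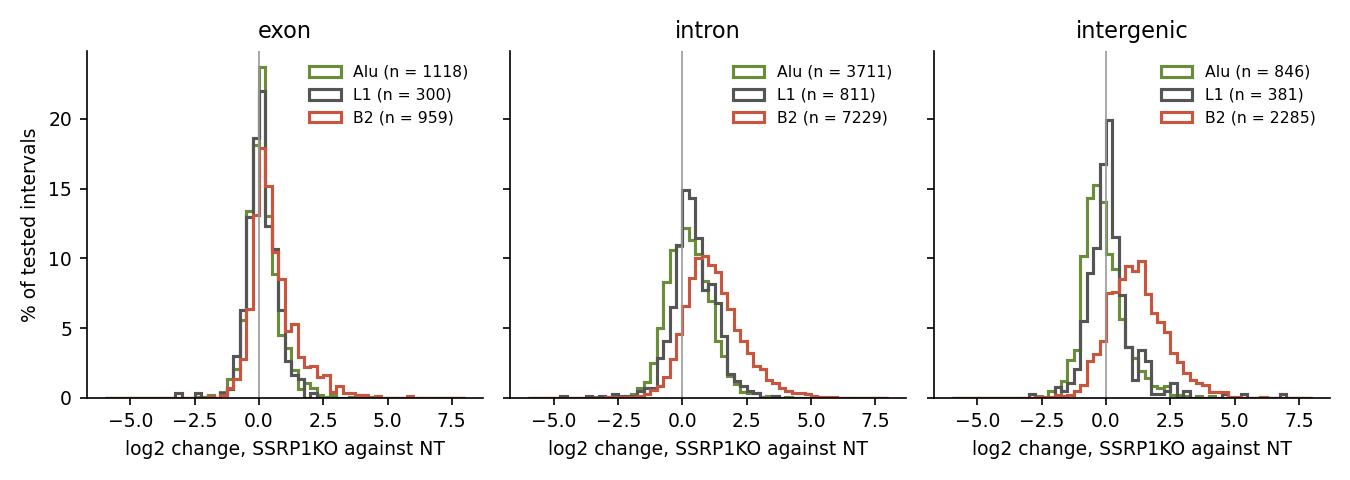
Distribution of the log2 change, SSRP1KO against NT over the mean of 5 times (x), as a percent of tested intervals (y), for B2, Alu and L1 intervals in exons, in introns and between genes. The B2 curve lies to the right of the other curves in introns and between genes, where its medians are 1.10 and 1.13, and less so in exons, where its median is 0.36.

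Few of the genes that hold the B2 intervals called higher were higher themselves, as was so for hosts of tested intronic B2 intervals in general. The 1619 intronic B2 intervals called higher whose host gene was tested lie in 1292 genes, of which 63 (4.88%) were higher and 270 (20.9%) lower by edgeR on the gene table, where 9.64% of all genes were higher and 10.2% lower. The 3597 hosts of all tested intronic B2 intervals had nearly the same shares, 4.98% higher and 20.5% lower. The median log2 change was 2.45 for these intervals and -0.07 for their hosts. The 1619 were chosen for being higher, so their excess over their hosts is a description. With the filter on NT libraries alone, 1878 intronic B2 intervals with a tested host had a median of 0.50 and their 1410 hosts a median of -0.10, and the interval's change was above its host's at 80.1% of them. Under the main filter that share was 90.0% of 6545. Of the 1410 hosts 59 were higher and 386 lower. Interval changes used gene-table totals and host changes used TMM, so these shares and medians set unlike scalings side by side. With TMM the median over all tested B2 intervals was 0.87 instead of 1.03. Read strand is not kept by the library kit, a SMART-Seq low-input kit, so reads from an element and from an overlapping or antisense transcript cannot be told apart.

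At single times fewer intervals passed with edgeR. At no crush 294 B2 intervals were higher and 0 lower, where 0.851% of all intervals tested were higher and 0.0532% lower. Intronic intervals of other repeats were also shifted up at no crush. Their median log2 changes were 1.17 for Alu, 1.02 for B4, 1.15 for L1 and 1.02 for ERVK, against 2.01 for B2. Intervals seen mainly in SSRP1KO no crush could enter through that group. With the filter on NT libraries alone, the no crush median over B2 intervals of all places was 0.98 instead of 1.90. Over all intervals it was 0.23 instead of 0.42. At 2dpc 88 B2 intervals were higher and 0 lower (0.207% and 0.0165% of all), at 3dpc 1 was higher and 0 lower (0.00183% and 0.0% of all), and at 4dpc 74 were higher and 0 lower (0.233% and 0.226% of all). The 4dpc count was 4 without NT 4dpc replicate 1 and 16 to 35 without any other 1 of the 6 libraries of that day. At 1dpc 0 passed either way (0.0% of all), with 720 of the 10473 tested at an unadjusted p under 0.05. DESeq2 called 0 higher and 4 lower at that day. The no crush count was 673 with the library labelled SSRP1KO no crush replicate 3 left out and 1445 without the 3 libraries that stood apart, but 7 without NT no crush replicate 2, 16 without replicate 3 and 51 without replicate 1. It was 0 with a Xist and Y-gene score as covariate, under which the mean over the 5 times kept a count of 2547. At 2dpc 0 were left without SSRP1KO 2dpc replicate 5 or without NT 2dpc replicate 2 or the library labelled NT 2dpc replicate 3, and 4 without NT replicate 1.

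The interval with the highest level in SSRP1KO among the 8 largest increases was in an intron of Trip4, a transcription coactivator, at chr9:65865615-65865640. In NT it had 0 to 0.115 CPM at no crush, 0.0782 to 0.137 at 1dpc, 0.207 to 1.03 at 2dpc, 0.0383 to 0.508 at 3dpc and 0.0688 to 0.276 at 4dpc. In SSRP1KO it had 17.7, 28.3 and 0.0641 CPM at no crush, the last in the library labelled SSRP1KO no crush replicate 3, and 0.977, 1.19 and 0.620 at 1dpc. It had 1.75, 4.71 and 56.5 CPM at 2dpc, 9.09, 5.19 and 9.13 at 3dpc and 10.3, 9.75 and 11.4 at 4dpc. The groups were apart at every time but no crush, where the library labelled SSRP1KO no crush replicate 3 lay at the NT level. The log2 change over the 5 times was 5.78 ± 0.54 (SE, edgeR adjusted p = 1.37e-08), and Trip4 mRNA changed by 0.08 (adjusted p = 0.464). The Trip4 interval was named for its size of change, with few NT counts, so its p-value is a description.

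In an intron of Rere, an atrophin-like transcriptional corepressor, the interval at chr4:150588653-150588678 was at 0 CPM in 10 of the 15 NT libraries and at most 0.117 in the others. In SSRP1KO it had 6.68, 6.79 and 0.0641 CPM at no crush and 0.269, 0.557 and 0.255 at 1dpc. At 2dpc it had 0.190, 0.959 and 10.9, at 3dpc 1.25, 1.18 and 1.39, and at 4dpc 1.94, 2.38 and 3.26 CPM. Its log2 change was 6.91 ± 0.69 (SE, edgeR adjusted p = 1e-07), the largest under the naming rule, while Rere mRNA was 0.23 lower (log2 change -0.23, adjusted p = 0.00173). With so few NT counts, the Rere interval entered the test through SSRP1KO and was named for its size of change, so its p-value is a description. Between genes, the interval at chr12:74830373-74830398, 2651 bases from Gm39473, had 0.424, 0.268 and 0.195 CPM in NT no crush, 0.156 to 0.411 at 1dpc, at most 0.0386 at 3dpc and 0 in all NT libraries of 2dpc and 4dpc. In SSRP1KO it had 8.09, 4.46 and 0 CPM at no crush, 1.08, 1.95 and 0.985 at 1dpc, 1.10, 1.69 and 3.43 at 2dpc, 2.63, 3.63 and 3.62 at 3dpc and 2.84, 1.60 and 1.83 at 4dpc. The groups were apart from 1dpc on, while at no crush the library labelled SSRP1KO no crush replicate 3, at 0, lay below every NT library. It was the 1 interval called at 3dpc, with 264 counts against 1, a ratio of 253 with a 95% counting interval of 45.4 to 9989, and it lost that call without any 1 NT library of the day. At 4dpc it was at least 44.5-fold higher, against a floor of 3 counts over the NT group. It was also named for its size of change, with few NT counts at these times, so these calls are descriptions too.

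The other 5 of the 8 largest increases were of log2 4.58 to 5.18. They lie in introns of Herc1, a large ubiquitin ligase (chr9:66366694-66366719), Atp13a3, a polyamine transporter (chr16:30382157-30382182), Rps6ka2, a ribosomal S6 kinase (chr17:7193715-7193740), and Aptx, a DNA repair enzyme (chr4:40692049-40692074), and between genes at chr9:25663528-25663553. Their SSRP1KO means were 2.09 to 4.27 CPM and their NT means 0.0729 to 0.170 CPM, and none of the 4 host genes passed the test. The Atp13a3 and Aptx intervals and the one at chr9:25663528-25663553 run together across the 30 libraries, each correlating above 0.98 with the others and with totals within 1.5-fold, so they may not be separate measurements. Such partners were found for 313 of the 10473 tested B2 intervals and for 171 of the 2572 called higher.

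**Figure D4:**
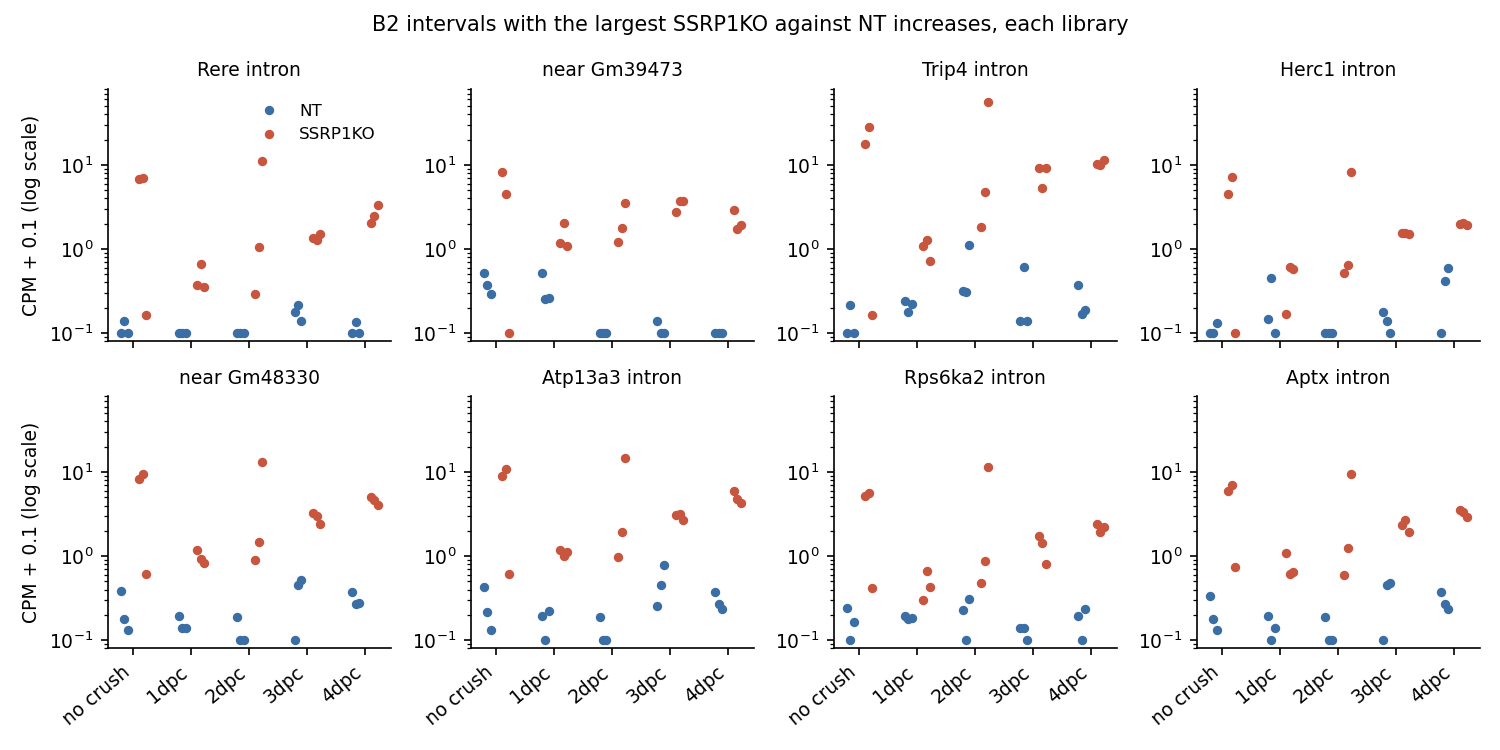
Level of the 8 B2 intervals with the largest SSRP1KO against NT increases (y, CPM + 0.1, log scale) at each time (x); points are libraries, 3 per group. SSRP1KO libraries (red) lie above NT (blue) at most times, and in every panel 1 SSRP1KO no crush library lies near the NT level.

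The library labelled SSRP1KO no crush replicate 3 differed from the other 2 of its group in which B2 intervals were high. It had 16.6 CPM for an interval in an intron of Dlg2, a synaptic scaffold protein (chr7:92424409-92424434), where the other 29 libraries had at most 0.970. It also had 5.32 CPM in an intron of the splicing factor gene Cwf19l2 (chr9:3418970-3418995), against 1.12 and 0.618 in its group and 0 in NT no crush, at least 58.6-fold higher in SSRP1KO with a floor of 3 counts over the NT group. At Slain2 (chr5:72951128-72951153), a microtubule factor, it had 0.448 CPM against 2.94 and 4.25, where NT no crush had 1 count in all. The Slain2 and Rere calls at no crush were lost without NT no crush replicate 2 or 3, and the Cwf19l2 call without any 1 of the 3. Similarly at 2dpc, an interval in an intron of Dnajc13 (chr9:104215849-104215874) had 0.304, 0.668 and, in replicate 5, 10.1 CPM against 0 in NT, a call that was lost without that library or any 1 NT library of the day. At 4dpc the 3 SSRP1KO libraries were close to each other, with 3.29, 3.25 and 2.09 CPM at Oxnad1 (chr14:32088388-32088413) and 2.74, 2.38 and 2.60 CPM at Crkl (chr16:17475745-17475770), where NT had 1 count in all at each. The Oxnad1 call was lost without NT 4dpc replicate 1 or 3 or SSRP1KO 4dpc replicate 1 or 2, and the Crkl call without NT 4dpc replicate 1. The Cwf19l2, Slain2, Dnajc13, Oxnad1 and Crkl intervals were named for their size of change, with few NT counts, so their calls are descriptions.

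Of the 21 B2 intervals called lower in SSRP1KO over the 5 times, 8 lay in exons, 4 in introns and 9 between genes. In the UTR of Herc6, an interferon-induced gene, the interval at chr6:57663375-57663400 was at 0.848 ± 0.477 CPM in SSRP1KO and 2.25 ± 2.12 in NT (SD, n = 15 each), a log2 change of -1.12 (edgeR adjusted p = 0.0433), with Herc6 mRNA at -1.20 (adjusted p = 0.0108). UTR intervals of Ppp2r3d and Zfp408 fell with their genes, by 0.61 and 0.46 on the log2 scale against 0.49 and 0.34 for the mRNA. In 1500004A13Rik, a non-coding gene, the interval at chr3:88805286-88805322 fell by 0.69 (adjusted p = 0.00672). The remaining 4 fell by 0.36 to 0.62 with adjusted p of 0.0302 to 0.0412. Leaving out 1 library at a time ended the Herc6 call in 17 of 30 cases, and ended the other calls among these 8 in 4 to 26 cases, except that of 1500004A13Rik.

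Genes of the machinery that reads or silences B2 elements were checked from 2 lists. Of all genes tested, 9.64% were higher and 10.2% lower over the 5 times. Of 30 tested genes of the RNA polymerase III machinery, 1 was higher and 0 lower, fewer than that share: Tbp, the TATA-binding protein, at 39.3 ± 8.55 CPM in SSRP1KO and 33.0 ± 5.07 in NT (SD, n = 15 each; edgeR log2 change 0.24, adjusted p = 0.0425). The list's median was 0.03, against 0.02 over all genes. Of 20 tested genes that silence SINEs or handle B2 RNA, 0 were higher and 4 lower, with a median of -0.08. Among these 4 is the targeted Ssrp1 (log2 change -0.89, adjusted p = 2.11e-06) and another is Adnp, part of a complex that binds SINEs in mouse embryonic stem cells, at 183 ± 22.6 against 212 ± 25.4 CPM (log2 change -0.21, adjusted p = 0.00572).

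After crush, single B2 intervals changed in NT cells, in both directions. Against no crush, edgeR called 1 B2 interval higher and 0 lower at 1dpc, where 0.171% of all intervals tested were higher and 0.00367% lower. It called 59 higher and 10 lower at 2dpc (2.55% and 0.735% of all), 87 and 45 at 3dpc (2.83% and 2.19% of all) and 130 and 44 at 4dpc (4.23% and 2.87% of all). The 174 at 4dpc are 1.66% of the B2 intervals tested, below the 7.1% of all intervals. With any 1 library left out the counts in both directions fell from 132 to between 60 and 83 at 3dpc and from 174 to between 78 and 120 at 4dpc. At 2dpc the 69 fell to 23 to 36 without any 1 NT no crush library and to 30 without the library labelled NT 2dpc replicate 3. With the Xist and Y-gene score as covariate the 4dpc count was 57. The interval called at 1dpc lies on chromosome 18, 863 bases from Crem, a cAMP-responsive transcription factor, and had 6.16, 6.02 and 2.80 CPM against 1.13, 0.613 and 1.78. Its log2 change of 2.07 ± 0.37 (SE, adjusted p = 0.00340) stood beside 2.01 for Crem mRNA, and the call was lost without NT no crush replicate 2.

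The largest NT increase at 4dpc was at chr2:32459607-32459654, between genes and 2654 bases from Naif1, a nuclear apoptosis-inducing factor. It had 0.0471, 0 and 0 CPM in NT no crush, 0.0405 to 0.0913 at 1dpc, 1.64, 2.20 and, in the library labelled NT 2dpc replicate 3, 4.32 at 2dpc, 4.21, 2.70 and 7.12 at 3dpc and 11.6, 6.09 and 6.46 at 4dpc. SSRP1KO libraries had 0 to 0.128 CPM at no crush and 0.371 to 0.656 at 1dpc. They had 1.63 to 2.57 at 2dpc, 2.66 to 3.40 at 3dpc and 4.58 to 6.98 at 4dpc. Levels from 2dpc on did not overlap those at no crush under either sgRNA, whereas at 1dpc they overlapped in NT and not in SSRP1KO. In NT, 449 counts at 4dpc stood against 1 at no crush, a ratio of 561 with a 95% counting interval of 101 to 22165 (edgeR adjusted p = 8.07e-11). With so few no crush counts, the interval near Naif1 entered the test through libraries after crush. It was named for its size of change, so its p-value is a description. Naif1 mRNA at 4dpc had a log2 change of 1.78 in NT (adjusted p = 0.0342) and -0.72 in SSRP1KO (adjusted p = 0.524).

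A like course was seen at chr13:58458789-58458817, between genes and 14209 bases from Gm47918. It had 0.0941, 0.115 and 0.0974 CPM in NT no crush, 0.430 to 0.486 at 1dpc, 2.07 to 2.78 at 2dpc, 4.05 to 6.28 at 3dpc and 7.26 to 10.3 at 4dpc, a log2 change of 6.38 ± 0.59 (SE, edgeR adjusted p = 2.61e-09). In SSRP1KO it went from 0 to 0.192 CPM at no crush to 4.84 to 6.51 at 4dpc (log2 change 6.10 ± 0.65, adjusted p = 2.13e-07). This interval too had few no crush counts and was named for its size of change, so its p-values are descriptions. In an intron of Paxip1, a DNA damage adaptor (chr5:27743674-27743699), NT had 0, 0.0766 and 0 CPM at no crush and 6.06, 4.03 and 6.33 at 4dpc, with Paxip1 mRNA 0.58 higher on the log2 scale (adjusted p = 0.00131). Of the other 5 largest increases, 3 ran together across libraries, at chr2:79124701-79124726, chr19:32984890-32984915 and, in an intron of Gm14154, chr2:151950067-151950092, with 4.53 to 5.48 CPM at 4dpc. The other two lie on chromosome 18 and at chr12:104608927-104608952, which had 6.19 CPM at 4dpc and 0.120 at no crush.

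**Figure D5:**
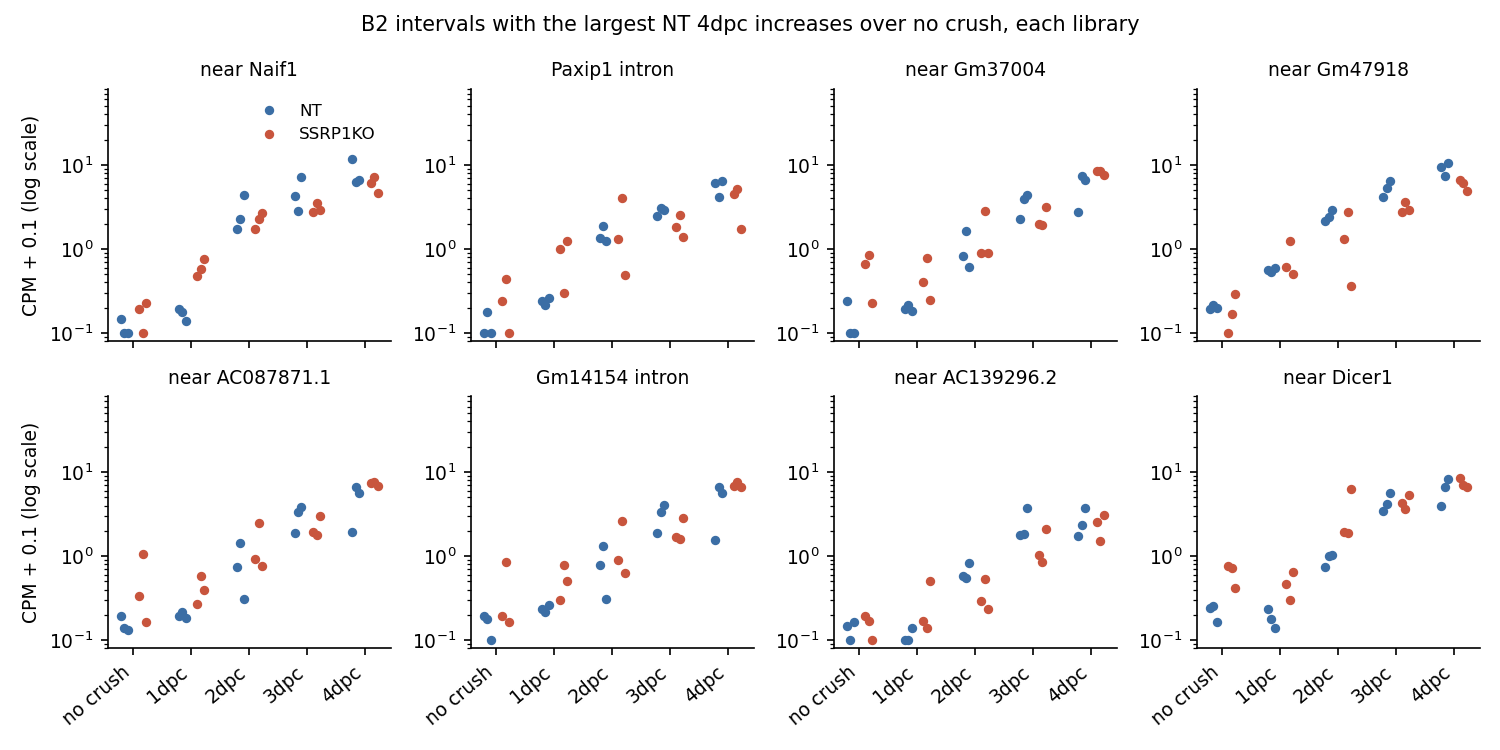
Level of the 8 B2 intervals with the largest NT increases at 4dpc over no crush (y, CPM + 0.1, log scale) at each time (x); points are libraries, 3 per group. In NT (blue) all 3 libraries at 4dpc lie above those at no crush in every panel, and SSRP1KO (red) is plotted beside them.

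Among the largest decreases in NT, the interval in an intron of Txnrd1, the cytosolic thioredoxin reductase (chr10:82852781-82852812), had 7.86, 5.78 and 4.48 CPM at no crush and 0.551, 1.03 and 0.752 at 4dpc. Its log2 change was -2.90 ± 0.63 (SE, edgeR adjusted p = 0.00235), whereas Txnrd1 mRNA was 0.73 higher (adjusted p = 0.00353). In the UTR of Lypd6b, a modulator of nicotinic receptors (chr2:49948344-49948369), NT had 7.39, 7.32 and 9.99 CPM at no crush and 1.19, 0.998 and 1.95 at 4dpc. That interval fell by 2.57 and its mRNA by 2.30 on the log2 scale. The UTR interval of Gabrg1, a GABA receptor subunit, fell by 2.69 with its mRNA at -2.14. An exonic and an intronic interval of 1700040D17Rik fell by 2.79 and 2.75, intronic ones of Gm13629 and Gtf2i both by 2.57, and an intergenic one at chr11:99111987-99112012 fell by 3.12. The Gtf2i call was lost without NT 4dpc replicate 1 or 3 or NT no crush replicate 1, and that on chromosome 11 without NT 4dpc replicate 1 or 2 or NT no crush replicate 1.

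Exonic and intronic NT calls at 4dpc were set beside their host genes, and the difference between places was not tested. Of 13 exonic intervals called higher with a tested host, 11 hosts were higher, and of 10 called lower, 9 hosts were lower. Of 57 intronic ones called higher, in 56 host genes, 14 hosts were higher and 12 lower, and of 16 called lower, 2 hosts were higher and 7 (43.8%) lower, where 14.0% of all genes were higher and 13.2% lower. At the same day 2 of the 30 RNA polymerase III genes were higher, the subunits Polr3b (log2 change 0.86) and Crcp (0.72), and 1 was lower, Polr3k (-0.80). In the silencing list of 20 genes Dnmt1, the maintenance DNA methyltransferase (1.01), and Supt16, the FACT partner of Ssrp1 (0.40), were higher and Cbx5, a heterochromatin protein, lower (-0.46). In both lists the shares higher and lower were below those of all genes.

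In SSRP1KO cells the direction after crush was mostly down at 1dpc. edgeR called 2 B2 intervals higher and 46 lower at 1dpc against no crush (0.196% and 0.266% of all intervals tested), with a median log2 change of -1.84 over B2 and -0.51 over all intervals. Other repeats fell as well, with medians of -1.45 for Alu and -1.12 for B4. In introns the medians were -1.94 for B2, -1.75 for Alu, -1.52 for B4 and -1.50 for L1. Intervals seen mainly in SSRP1KO no crush could enter the test through that group. With the filter on NT libraries alone, the medians over all places were -1.25 for B2 and -0.31 for all intervals. In an intron of Scaf4, a factor acting on transcription end points (chr16:90273326-90273351), SSRP1KO had 4.81, 5.35 and 0.448 CPM at no crush, the last in the library labelled SSRP1KO no crush replicate 3, and 0.101, 0.0796 and 0.146 at 1dpc. The Dlg2 interval, with a log2 change of -5.84, rests on the 16.6 CPM of that same library, and its call was lost without it. An exon interval of 1500004A13Rik (chr3:88805918-88805943) was higher, with 7.44, 8.92 and 7.29 CPM against 2.57, 0.686 and 4.48. The 1dpc count was 226 with the library labelled SSRP1KO no crush replicate 3 left out, 23 without replicate 2 of that group, and 8 to 12 without any 1 of the 3 SSRP1KO 1dpc libraries.

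At 2dpc 17 B2 intervals were higher and 29 lower in SSRP1KO (0.944% and 0.733% of all tested), at 3dpc 16 and 18 (0.974% and 0.952% of all) and at 4dpc 20 and 15 (0.832% and 1.18% of all). With 1 library left out, the counts in both directions were 24 to 68 at 2dpc, 11 to 29 at 3dpc and 13 to 40 at 4dpc. The crush response differed between SSRP1KO and NT at 9 B2 intervals by edgeR's F-test of the 4 interaction contrasts (0.0422% of all intervals tested). The intervals near Naif1 and Gm47918 were among the 3 largest increases at 3dpc and 4dpc, and those in introns of Birc6, Prrc2b and Sugct were the 3 named decreases at 2dpc. Before any filter, 21.3% of B2 intervals with unequal means were higher at 1dpc than at no crush in SSRP1KO, against 47.4% in NT, and 48.2% against 59.2% at 4dpc. All of these comparisons within SSRP1KO share the no crush libraries, and so do those within NT.

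The B2 intervals with the highest levels were in UTRs. Averaged over the 10 groups, the highest was at chr17:13016905-13016930 in the UTR of Sod2, the mitochondrial superoxide dismutase, at 71.9 CPM. Its group means were 94.6, 66.6, 43.0, 49.5 and 39.7 CPM in NT from no crush to 4dpc and 160, 71.1, 74.9, 57.0 and 62.4 CPM in SSRP1KO. The next were UTR intervals of H2-D1, a class I histocompatibility gene, at 49.9 CPM, and of Napb, a vesicle fusion protein, at 43.4. Those of Junb, Snhg11, Trove2, Hspa4l, Paics and Tmx2 were at 39.4 to 26.1 CPM. The 1 of the 10 that lay between genes, at chr7:126643221-126643250, was at 32.3 CPM, 5293 bases from 2510046G10Rik. The 561 B2 intervals with the most counts, the top 1%, held 29.4% of all B2 counts.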

How the data were processed

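For 30 libraries, the authors deposited counts for each gene and counts for each repeat interval, both whole numbers. Tools named in the submitters' processing notes are bcl2fastq 2.17, STAR and HTSeq, with GRCm38 (mm10); their roles, the strand setting and how multiply matching reads were treated is not given in the sources used here. Reads were paired, of 69 bp, per the labels. The B2 intervals and the gene lists were chosen with earlier results of these data known.

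Library sizes were gene-table totals, after 27 date-like symbols (at most 0.275% of counts) were dropped. edgeR 4.0.16 (R 4.3.3; filterByExpr, glmQLFit, glmQLFTest) was fitted to all 54536 intervals that passed, and to 16621 genes with TMM, with 10 groups in 1 model. Interval and gene changes are thus on unlike scalings wherever they are set side by side. Totals were tested by permutation (100000 within-time shuffles, or exact over 455 splits, whose smallest p is 0.0022). On simulated data with known changes, 76 of 100 4-fold and 13 of 100 2-fold changes were recovered for the mean of the 5 times, and 9 and 0 of 100 at no crush.

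Named intervals passed the threshold, reached 2 CPM in the higher group and did not overlap between groups (for the mean of the 5 times, the same sign at all 5). The largest were taken: 8 each way for that mean and for NT 4dpc, and 3 each way elsewhere. The 10 highest levels and, for the difference between crush responses, the 5 smallest p were added. Host genes, and 2 genes each way per list, complete the rule. Intervals were named for their size of change. Those with few NT counts passed the filter through SSRP1KO. Increases after crush with few no crush counts passed it through libraries after crush. The p-values of such intervals are therefore descriptions. Places and sequences came from GENCODE M21. Alternatives were DESeq2 1.42.0, other scalings and filters, a sex covariate, a replicate block and leaving libraries out. The replicates of the closest pair differed by 11.5 times the sampling noise (chi-square per degree of freedom). Counting intervals and floors cover counting error only.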

Additional observations from a re-analysis of the deposited data

Results flagged for a closer look

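The response to crush differed between SSRP1KO and NT at 9 B2 intervals by edgeR's F-test of the 4 interaction contrasts, where 0.0422% of all intervals tested passed. The 5 with the smallest adjusted p were in an exon of Gm43461 (chr5:147428390-147428415, adjusted p = 0.00788), an intron of Firre, an X-linked non-coding RNA (chrX:50622808-50622833, adjusted p = 0.00788), and introns of Lrrc8d, an anion channel subunit (chr5:105765688-105765713, adjusted p = 0.00788), Wdr19 (chr5:65215542-65215567, adjusted p = 0.0115) and Gm21119 (chr8:20622025-20622050, adjusted p = 0.0131). These intervals ran together across libraries, each with 3 to 6 partners that correlated above 0.98, so they may not be separate measurements. The Lrrc8d interval had 7.66, 14.0 and 9.16 CPM in SSRP1KO no crush and 0.236, 0.557 and 0.401 at 1dpc. In NT it had 1.08, 0.268 and 0.389 CPM at no crush and 4.38, 3.13 and 2.96 at 1dpc. Levels at 1dpc were below those at no crush in SSRP1KO and above them in NT, with no overlap in either. Xist moved with these levels, at 1293 to 2608 CPM in SSRP1KO no crush, at most 0.506 in SSRP1KO 1dpc, at most 190 in NT no crush and at least 1053 in NT 1dpc. With a Xist and Y-gene score as covariate, 0 B2 intervals passed.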

How the results depend on the processing

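The SSRP1KO minus NT difference in the B2 total kept its direction and its side of the threshold under every alternative run, at 0.254 to 0.446 percentage points with 1 library left out, and its share of repeat-table counts at 0.474 to 0.935. Crush differences with 1 library left out were 0.0283 to 0.0611 (share 0.0775 to 0.232) in NT and -0.461 to -0.243 (share -1.48 to -1.05) in SSRP1KO. The NT share turned to -10.7 percentage points with Alu and B4 counts as denominator, which passed the threshold (exact permutation p = 0.0462), and to -0.188 without rRNA and unlabelled intervals; the other denominator sets the scale. Without the 3 libraries that stood apart, a choice made after seeing the data like the denominator without rRNA and the filter on NT libraries, the SSRP1KO crush differences passed the threshold at -0.601 and -1.42 (share).

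Counts of called B2 intervals moved more, and the causes were not tested. With 1 library left out, SSRP1KO against NT called 1836 (without SSRP1KO 2dpc replicate 5) to 3521 over the 5 times, 7 to 673 at no crush, 0 to 0 at 1dpc, 0 to 546 at 2dpc, 0 to 1 at 3dpc and 4 to 35 at 4dpc. Crush calls from 1dpc to 4dpc were then 0 to 3, 23 to 78, 60 to 83 and 78 to 120 in NT, and 8 to 226, 24 to 68, 11 to 29 and 13 to 40 in SSRP1KO, and the difference between crush responses 6 to 11.

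For SSRP1KO against NT from no crush to 4dpc, DESeq2 called 672, 4, 412, 19 and 221, no filter 761, 40, 721, 140 and 267, the compared groups alone 45, 29, 0, 125 and 189, and all but the 3 libraries 1445, 23, 3, 129 and 405. The filter on NT libraries alone called 80 at no crush, 7 at 2dpc, 0 at 3dpc, 26 at 4dpc and 332 over the 5 times. A sex covariate called 0 at no crush, 2dpc and 3dpc. TMM on genes called 164 at no crush and 57 at 2dpc, and TMM over repeat intervals 173 at no crush. Over the 5 times, no filter called 3940 and a mean of at least 10 counts 719.

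For crush from 1dpc to 4dpc in NT, DESeq2 called 8, 145, 215 and 276. No filter called 18 and 116 at 1dpc and 2dpc, the groups alone 11, 18 and 92 at 1dpc, 2dpc and 4dpc, the sex covariate 0 and 57 at 1dpc and 4dpc, and all but the 3 libraries 10, 272 and 347 at 1dpc, 3dpc and 4dpc. In SSRP1KO, DESeq2 called 322, 109, 86 and 74, no filter 536, 170, 83 and 56, and all but the 3 libraries 820, 249, 113 and 60. The groups alone called 84, 0 and 17 at 1dpc to 3dpc, the sex covariate 0 and 4 at 1dpc and 2dpc, and TMM on genes 30 at 1dpc. The difference between crush responses had 26 calls with DESeq2, 242 with no filter, 38 without the 3 libraries and 0 with the sex covariate.

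Replicate numbers did not pair the libraries: over 117 same-numbered pairs the correlation of deviations was -0.50 to 0.33, with 16 pairs over 0.1. A replicate block gave 1026 calls over the 5 times, 559 at no crush, 0 at 2dpc, 23 at 3dpc and 153 at 4dpc for SSRP1KO against NT, 2 for NT 1dpc, and 236, 11 and 52 for SSRP1KO 1dpc to 3dpc.

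None of the 92 named results reversed. Under alternatives other than leaving out 1 library, 701 of their values kept their side of the threshold and 75 lost it, 30 of these with the sex covariate. With 1 library left out 1089 kept it and 207 lost it. The median B2 interval had 23 counts over all 30 libraries, and at no crush simulated 4-fold changes were recovered for 9 of 100 intervals; the other times and the crush comparisons were not simulated.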
